A study of Mus musculus with 14 samples.

Results

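Arginine sits at a branch point of macrophage metabolism, and 6 genes of that branch point are described here in macrophages from the inflamed central nervous system. They are the arginases Arg1 and Arg2, the inducible nitric oxide synthase Nos2, the cationic amino acid transporter Slc7a2, the argininosuccinate synthase Ass1 and the ornithine decarboxylase Odc1. They were chosen by gene symbol from the 19940 genes of the deposited table, each matched 1 row, and all 6 were among the 12096 genes tested.

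Arginase splits arginine into ornithine and urea; Arg1 is the cytosolic and Arg2 the mitochondrial form. Nos2 uses the same arginine to make nitric oxide and citrulline, Slc7a2 brings arginine into the cell, and Ass1 catalyses the first step that rebuilds arginine from citrulline. Odc1 turns ornithine into putrescine, the start of polyamine synthesis. In mouse macrophages Nos2 is widely used as a marker of classical, interferon- and microbe-driven activation and Arg1 as a marker of alternative activation, although cells in inflamed tissue can carry both.

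RNA was sequenced from monocyte-derived macrophages sorted from the central nervous system at the peak of experimental autoimmune encephalomyelitis, an autoimmune model of multiple sclerosis in mice. Per the labels, host mice were irradiated with 2 doses of 5.5 Gy and given 2.5 M (mega) bone marrow cells each of wild-type (wt, CD45.1) and mCAT (CD45.2, CCR2creERT2/+ mcat lsl/wt) donors, and all samples carry the label Tamoxifen. The mCAT cells carry a tamoxifen-inducible Cre driven from Ccr2 and a Cre-dependent catalase, an enzyme that degrades hydrogen peroxide, targeted to mitochondria. The other donor is labelled only as wt, so catalase, Cre, the Ccr2 allele and the CD45 allele differ together between the groups. Recombination per cell is not measured in the table, and the sources used here give no host strain, age or sex.

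There were 14 libraries, 7 of each genotype, and each has a code made of a series (C1 or C2), a stem number and a letter for the genotype. Series C1 held 8 libraries of 5 stems, and series C2 held 6 libraries of 3 stems. What C1 and C2 stand for is not in the labels. Both genotypes were present for 6 stems, and the 2 libraries of such a stem are called partners here. Values are normalised counts, recovered from the deposited log2-scale values, whose sums per library ran from 32.8 M to 43.4 M. A rough estimate of depth from the lowest values gave 16.7 M reads for wt 7, and 27.3 M to 46.6 M reads for the others. All macrophage markers checked were present, from the lysozyme gene Lyz2 and the monocyte gene Ly6c2 to the integrin gene Itgam and Adgre1, which encodes F4/80. The 4 libraries of stems C2_2 and C2_4 (wt 6, mCAT 6, wt 7 and mCAT 7) stood apart from the other 10 in several of the genes below, and log2 differences of named genes between the series are given with and without them.

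Arg1 was among the most abundant transcripts of these macrophages. Its normalised count ran from 115952 to 564824 over the 14 libraries and made up 0.316% (wt 6) to 1.46% (wt 4) of the library sums. To compare genes with each other, normalised counts were divided by the length of the transcript in kilobases. On that scale Arg1 averaged 222034 ± 100564 (SD, n = 14) and held rank 9 of 12072 genes. Ass1 followed at 17105 ± 7075 and rank 177, so that the enzyme that recycles citrulline was also far above most genes. Nos2 averaged 2483 ± 1749, Arg2 2427 ± 535 and Slc7a2 1881 ± 560 per kilobase, and these 3 neighbours in the order did not differ beyond their spread. Odc1 was lowest at 522 ± 268, with rank 3449. Arg1 and Ass1 were first and second in all 14 libraries, whereas Nos2 came next in 6 libraries and was lowest of the 6 genes in wt 6, mCAT 6 and wt 7.

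The level of Arg1 varied far more between stems than between the genotypes. Its lowest, median and highest normalised counts were 115952, 373242 and 564824 in wt and 123655, 381597 and 536074 in mCAT libraries. The ranges of the genotypes overlapped almost entirely, with wt 6 and mCAT 6 at the bottom and wt 4 and mCAT 4 at the top of their groups. The log2 difference, mCAT minus wt, was 0.08 (SE 0.38, adjusted p = 0.984 in limma, exact permutation p = 0.857 for 7 against 7). Within the 6 stems the mCAT partner had between 0.949 and 1.07 times the wt count. With the stem as a block in limma the difference was 0.02, with a 95% interval of -0.14 to 0.18 (adjusted p = 0.937). The level itself varied 4.87-fold between the 14 libraries.

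**Figure D1:**
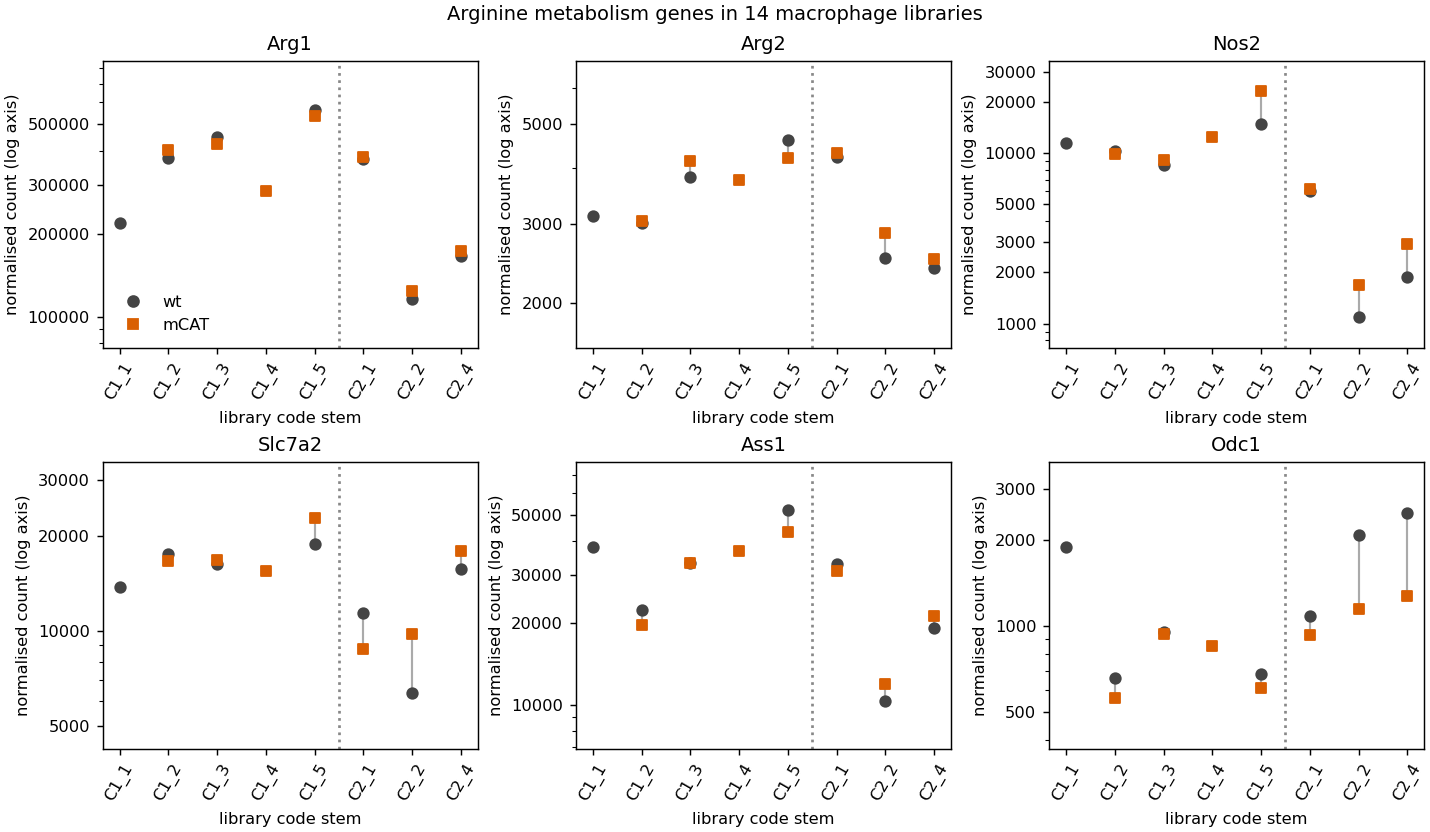
Normalised count (log axis) of each of the 6 genes in 14 libraries, by library code stem; circles are wt, squares are mCAT, grey lines join the partners of a stem and the dotted line separates series C1 from C2. Partners lie close together for Arg1, from 115952 and 123655 in C2_2 to 564824 and 536074 in C1_5, while the stems lie far apart; Odc1 is lower in the mCAT partner of every stem.

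Arg2 behaved in the same way at a lower level. Its normalised count ranged from 2391 to 4600 in wt (median 3122) and from 2506 to 4315 in mCAT libraries (median 3761). The paired log2 difference was 0.04, with a 95% interval of -0.13 to 0.21 (limma adjusted p = 0.885), and its mCAT partner had 0.912 to 1.13 times the wt count.

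Nos2 varied most of the 6 genes and was higher in the mCAT partner of 5 of 6 stems, without passing the test. In wt libraries it ranged from 1091 to 14757 normalised counts with a median of 8516, and in mCAT libraries from 1697 to 23021 with a median of 9128. In stem C1_5 the wt and mCAT counts were 14757 and 23021, in C2_2 they were 1091 and 1697, and in C2_4 they were 1870 and 2934. The mCAT count was thus 1.56, 1.56 and 1.57 times that of wt in these 3 stems. In the other 3 stems it was 0.964 (C1_2), 1.07 (C1_3) and 1.03 times (C2_1). The unpaired log2 difference was 0.29 (SE 0.63, limma adjusted p = 0.959). It was -0.084 without wt 6, 0.62 without mCAT 6, and 0.17 without the 4 libraries of C2_2 and C2_4. With pairing it was 0.32, with a 95% interval of 0.09 to 0.55 (limma unadjusted p = 0.00995, adjusted p = 0.440). An unadjusted p under 0.05 was reached by 9.24% of all genes in that fit. The exact sign-flip p over the 6 pairs was 0.0938.

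Odc1 was the gene with the most regular genotype difference: it was lower in the mCAT partner of 6 of 6 stems, but did not pass the test over all genes. Its normalised counts were 659, 1081 and 2488 in wt (lowest, median and highest) and 561, 931 and 1270 in mCAT. The groups overlapped, and wt 1, wt 6 and wt 7 lay above every mCAT library. In stems C2_2 and C2_4 the wt counts of 2085 and 2488 stood against 1147 and 1270 in mCAT, ratios of 0.550 and 0.510. In the other 4 stems the ratio lay between 0.852 and 0.983. The paired log2 difference was -0.38, with a 95% interval of -0.64 to -0.11 (limma unadjusted p = 0.00914, adjusted p = 0.440). The exact sign-flip p was 0.0312, the smallest that 6 pairs allow. Of all genes tested, 2.63% were lower in mCAT in 6 of 6 pairs and 5.37% had the same direction in all 6. Without the libraries of C2_2 and C2_4 the unpaired log2 difference was -0.32 (adjusted p = 0.997), against -0.47 with them (adjusted p = 0.878). The difference between the genotype effects of C2 and C1 pairs was -0.52 for Odc1 (SE 0.22, limma unadjusted p = 0.0354, adjusted p = 0.9997). That test called 0 of 12096 genes (0%), with 318 at an unadjusted p under 0.05, and 1 gene on the log2(normalised count + 1) scale.

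Slc7a2 and Ass1, which supply arginine, showed no common direction between partners. Slc7a2 had normalised counts of 6361 to 18902 in wt (median 15715) and 8759 to 22850 in mCAT (median 16678). The mCAT partner had from 0.767 (C2_1) to 1.54 times (C2_2) the wt count, and the paired log2 difference was 0.11 (95% interval -0.12 to 0.35, limma adjusted p = 0.756). Ass1 had 10354 to 52114 in wt (median 32983) and 11914 to 43356 in mCAT (median 31205). Its mCAT partner was higher in 3 and lower in 3 stems, and the paired log2 difference was -0.03 (95% interval -0.21 to 0.15, limma adjusted p = 0.930).

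None of the 6 genes was called between the genotypes. The unpaired fit called 24 of 12096 genes (0.198%; 0.0827% higher and 0.116% lower in mCAT) and the paired fit 38 (0.314%; 0.165% higher and 0.149% lower), so that a count of 0 among 6 genes is near this background. None of the 6 lies on chromosome 1, which holds Ptprc, the CD45 gene; by the GENCODE M21 annotation they lie on chromosomes 10 (Arg1, ENSMUSG00000019987), 12 (Arg2, ENSMUSG00000021125, and Odc1, ENSMUSG00000011179), 11 (Nos2, ENSMUSG00000020826), 8 (Slc7a2, ENSMUSG00000031596) and 2 (Ass1, ENSMUSG00000076441). Cell numbers and RNA per cell cannot be told apart in sorted bulk samples.

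**Figure D2:**
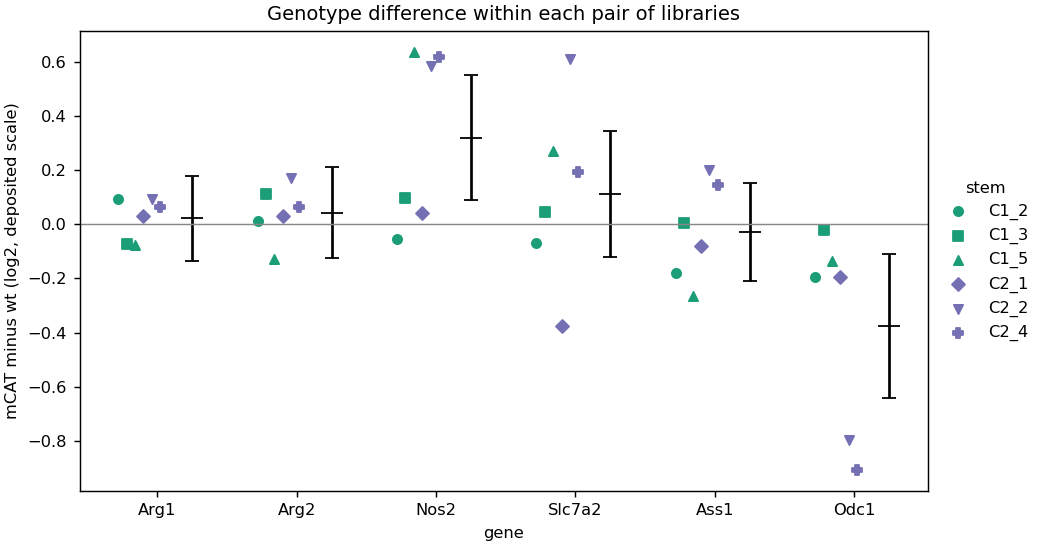
Difference mCAT minus wt on the deposited log2 scale for each of the 6 genes; symbols are the 6 stems, green for C1 and violet for C2, and black bars give the paired limma estimate with its 95% interval. Arg1 stays between -0.08 and 0.09, Nos2 separates into 3 stems near 0.6 and 3 near 0, and Odc1 lies below 0 in all 6 stems, lowest in C2_4 at -0.91.

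Partners resembled each other in all 6 genes. The SD of the difference between partners was 0.08 for Arg1 on the log2 scale, against an SD of 0.86 between the means of the stems. For Nos2 these values were 0.32 and 1.36, for Ass1 0.18 and 0.73, for Arg2 0.10 and 0.35, for Odc1 0.38 and 0.57, and for Slc7a2 0.33 and 0.53. Over the 6 stems the wt and mCAT values of Arg1 correlated with Pearson r = 0.998 (exact permutation p = 0.00139, adjusted over 6 genes 0.00417) and Spearman rho = 1 (exact permutation p = 0.00278, adjusted 0.00833). For Nos2 r was 0.976 and rho 1 (exact permutation p of 0.00139 and 0.00278). For Ass1, Arg2 and Odc1 r was 0.987, 0.970 and 0.935 and rho 0.943 in each, with adjusted exact permutation p of 0.00833, 0.00833 and 0.0167 for r and 0.0200 for each rho. Slc7a2 had the weakest agreement, with r = 0.825 (exact permutation p = 0.0417, also when adjusted) and rho = 0.714 (p = 0.136). Without the 2 stems farthest from the median, r remained between 0.939 and 0.976 for the other 5 genes and was 0.717 for Slc7a2. Partners share a stem, a series and, where the stem stands for 1 host, the animal.

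Between the code series, Nos2 was lower in C2, and it was the only one of the 6 genes that passed the test. In C1 its lowest, median and highest normalised counts were 8516, 10830 and 23021, and in C2 they were 1091, 2402 and 6182. No C2 library reached the lowest C1 library; 2.25% of all genes had no overlap between the series, in either direction. Means were 12430 ± 4724 (SD, n = 8) and 3296 ± 2247 (SD, n = 6), a 3.77-fold difference. The log2 difference, C2 minus C1, was -2.08 (SE 0.33, 95% interval -2.77 to -1.38, limma adjusted p = 0.00197 with libraries of a stem treated as correlated). That fit used the same within-stem correlation for all genes, 0.463 after genotype and series. Nos2 partners correlated at 0.976 over the 6 stems with the series left in. The fit may thus take Nos2 partners as more separate than they were. A correlation fitted to Nos2 alone was not tested. The series comparison called 328 of 12096 genes (2.71%), 194 higher (1.6%) and 134 lower (1.11%) in C2.

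The Nos2 difference held within each genotype in size, and its call depended on how stems were counted. Among wt libraries Nos2 averaged 11233 ± 2635 in C1 (SD, n = 4) and 2988 ± 2640 in C2 (n = 3), and among mCAT libraries 13627 ± 6427 and 3604 ± 2316. The log2 differences were -2.18 in wt alone (adjusted p = 0.137) and -1.97 in mCAT alone (adjusted p = 0.0789). With 1 mean per stem, 5 stems against 3, the log2 difference was -2.08 with a limma adjusted p of 0.0518, and the exact permutation p over the 56 splits was 0.0179, the smallest they allow. Leaving out any 1 library kept the limma adjusted p at or below 0.00968 in the fit with correlated libraries. Where the library had a partner, the partner stayed in, so this does not show what leaving out a stem would do. Without stems C2_2 and C2_4 only C2_1 was left in that series, where Nos2 stood at 6003 and 6182, and the log2 difference was -0.94 (adjusted p = 0.9996).

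Arg1, Ass1, Slc7a2 and Arg2 also had lower means in C2 and Odc1 a higher one, none of them past the threshold. Arg1 averaged 407223 ± 116299 in C1 (n = 8) and 222238 ± 122316 in C2 (n = 6). Its log2 difference was -0.92 (95% interval -1.55 to -0.30, limma adjusted p = 0.110). C2_1, with 373242 and 381597, lay within the C1 range, and without C2_2 and C2_4 the difference was 0.03. Arg1 passed the threshold without wt 1 (-1.08, adjusted p = 0.0382), after quantile normalisation (-1.16, adjusted p = 0.0377), and with libraries taken as independent (-0.99, adjusted p = 0.0484). Ass1 differed by -0.80 (adjusted p = 0.126), Slc7a2 by -0.61 (adjusted p = 0.141) and Arg2 by -0.25 (adjusted p = 0.474). Without C2_2 and C2_4 these differences were -0.080 for Ass1, -0.74 for Slc7a2 and 0.22 for Arg2. Odc1 differed by 0.62 (95% interval 0.10 to 1.15, limma adjusted p = 0.204). It passed without wt 1, the highest C1 library at 1896, with a difference of 0.80 (adjusted p = 0.0373), and stood at 0.17 without C2_2 and C2_4.

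Markers of other cell types and of macrophages differed between the code series as well. Summed normalised counts of 7 microglia markers were 3476 to 6028 in C1 and 8510 to 16707 in C2, without overlap, and 13911 or more in the libraries of C2_2 and C2_4. All 6 of these that were tested were above 0 in C2 minus C1, with a median log2 difference of 0.70, against -0.0056 over all genes tested. Gpr34 (163 to 571 in C2, 35.98 to 150 in C1) and Olfml3 (4336 to 11493 against 1138 to 3051) were called, where 1.6% of all genes were called higher. Olfml3 was the largest part of the sum in every C2 library. Tmem119 did not overlap either, with 2204 to 3500 in C2 and 550 to 2008 in C1. Of all genes tested, 2.25% had no overlap between the series. P2ry12 (1034 to 1453 in C2, 563 to 1254 in C1), Siglech (78.4 to 324, 46.8 to 319) and Sparc (553 to 882, 214 to 704) overlapped. Sall1 overlapped as well and was at 36.2 or less in every library. Summed macrophage markers were 2755040 to 4674040 in the 4 libraries of C2_2 and C2_4 and 1027550 to 2050700 in the others, mostly from Lyz2. Of 7 tested neutrophil markers 6 were below 0 in C2 minus C1 (median -0.69). Cxcr2 was called, with 0 to 9.37 in C2 and 11.2 to 50.7 in C1, where 1.11% of all genes were called lower. The sum of all 12 neutrophil markers overlapped (10196 to 15585 in C2, 11012 to 40256 in C1). Ly6g, their defining member, stood at 30.1 or less everywhere, and Mpo was under 10. Other members were not low: Mmp8, Csf3r and S100a8 stood at 2932, 3356 and 1733 or more in every library. In mCAT 3, Ngp (2909), Ltf (1291), S100a9 (1285.5) and Camp (393) were far above the other libraries (at most 150, 57.3, 303 and 46.6). Between the genotypes, 7 of 8 tested T cell markers and 5 of 5 B cell markers were below 0 in unpaired mCAT minus wt. By contrast, 6 of 7 neutrophil and 4 of 4 endothelial markers were above 0, and none of all these was called unpaired. In the paired fit no T or B cell marker was called, but the macrophage list gene Ccr2 was called lower in mCAT. Mmp8 of the neutrophil list was called higher there (0.149% lower and 0.165% higher among all genes). Both had their direction in 6 of 6 stems. The Ccr2 allele itself differs between the donors (CCR2creERT2/+ in mCAT), and its part in the Ccr2 call was not tested. The T cell genes Cd2, Cd3d, Cd3g, Lck and Trbc2, like Odc1, were lower in the mCAT partner of 6 of 6 stems, against 2.63% of all genes tested. Of the other T cell genes, Cd3e was lower in 5 stems, and Cd4, Cd28 and Cd8a were lower in 3. The B cell gene Ms4a1 was lower in 6 of 6 as well. Summed T cell markers were 275 to 967 in wt and 164 to 493.2 in mCAT libraries. The part of these markers in the results above and below was not tested.

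The Arg1 to Nos2 ratio of normalised counts was higher in every C2 than in every C1 library. It ran from 19.1 (wt 1) to 52.5 (wt 3) in C1 and from 59.1 (mCAT 7) to 106 (wt 6) in C2, with means of 35.0 ± 12.1 (SD, n = 8) and 75.1 ± 18.8 (SD, n = 6). In C2_1 alone it was 62.2 and 61.7. The exact permutation p over stem means was 0.0357. Between genotypes the ratio overlapped, from 19.1 to 106 in wt and from 22.9 to 72.9 in mCAT. The log2 ratio differed by -0.22, mCAT minus wt (exact permutation p = 0.578 for 7 against 7), and by -0.45 without wt 1 and -0.056 without wt 6. It was lower in the mCAT partner of 5 of 6 stems, by 0.30 on average (exact sign-flip p = 0.0938).

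Arg1 and Nos2 were high and low in the same libraries rather than in opposite ones. Across the 7 wt libraries their log2 values correlated with Pearson r = 0.850 (exact permutation p = 0.0159, also when adjusted over both genotypes) and Spearman rho = 0.750 (exact permutation p = 0.0663). Across the 7 mCAT libraries r was 0.904 (exact permutation p = 0.00635, adjusted 0.0127) and rho 0.750 (p = 0.0663). Leaving out the 2 libraries farthest from the median of Arg1 reduced r to 0.133 in wt and 0.432 in mCAT. The relation therefore rests on wt 6, wt 7, mCAT 6 and mCAT 7.

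**Figure D3:**
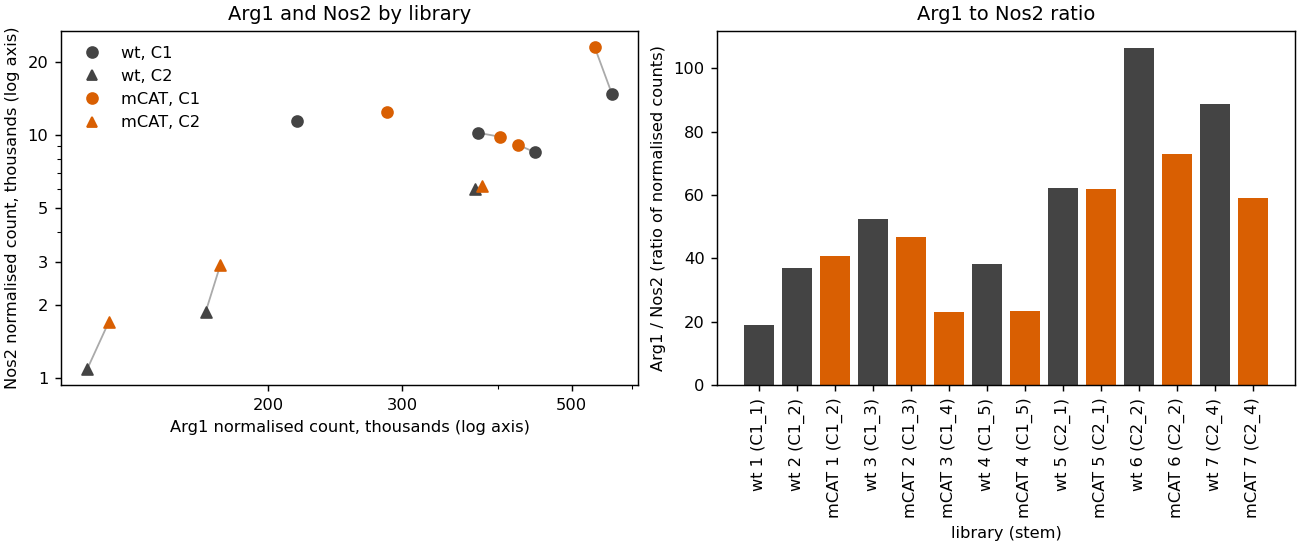
Left, Arg1 against Nos2 as normalised counts (both axes log, scaled down as the labels show), with colour for genotype, shape for code series and lines joining partners; right, the ratio of Arg1 to Nos2 in each library. The 4 libraries of C2_2 and C2_4 hold both genes at their lowest, and the ratio is 59.1 or more in every C2 library against 52.5 or less in every C1 library.

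The 5 genes most like Arg1 and the 5 most like Nos2 had no gene in common. With so few taken for each, this does not show that the patterns of Arg1 and Nos2 differ. After removing the genotype means, the 5 genes nearest to Arg1 over 14 libraries were Prpsap1 (Pearson r = 0.970), the proteasome subunit gene Psmd11 (0.969), Lyar (0.964), Nsfl1c (0.958), which encodes a cofactor of the p97 ATPase, and the peroxiredoxin gene Prdx6 (0.958). Prdx6 ranged from 32326 to 94005 normalised counts. Nearest to Nos2 were Glipr2 (0.986), the glutamate transporter gene Slc1a2 (0.978), Kazald1 (0.977), the leukotriene B4 receptor gene Ltb4r1 (0.975) and Dgat2 (0.971), whose enzyme makes triglycerides. Ltb4r1 ranged from 275 to 6135. These are the highest of 12095 correlations each, over libraries that share stems and series. Among the 6 genes themselves, Arg1 and Nos2 correlated at 0.875, Nos2 and Ass1 at 0.873 and Arg1 and Odc1 at -0.835 on the same measure, with the series left in. Other pairs were weaker, such as Arg2 and Slc7a2 at 0.220, and Odc1 with Ass1 and with Slc7a2 at -0.494 each.

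Promoter sequences were at hand for Ass1 and Odc1, the members with the recycling and the polyamine step. The 250 bases before the start of each gene are shown 5′ to 3′, from RefSeq on GRCm38.p6: chr2:31470020-31470269 (plus strand) for Ass1 and chr12:17544623-17544872 (plus strand) for Odc1. Capitals mark the E-box CACGTG, the binding sequence of basic helix-loop-helix factors such as MYC and USF, and the GC box GGGCGG, that of Sp1-type factors, which reads as CCGCCC on the other strand.
Ass1: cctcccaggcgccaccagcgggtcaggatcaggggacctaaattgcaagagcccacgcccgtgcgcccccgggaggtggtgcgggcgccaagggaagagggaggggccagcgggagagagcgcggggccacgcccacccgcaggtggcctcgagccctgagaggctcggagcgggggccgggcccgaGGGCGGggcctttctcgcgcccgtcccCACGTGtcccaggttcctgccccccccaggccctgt
Odc1: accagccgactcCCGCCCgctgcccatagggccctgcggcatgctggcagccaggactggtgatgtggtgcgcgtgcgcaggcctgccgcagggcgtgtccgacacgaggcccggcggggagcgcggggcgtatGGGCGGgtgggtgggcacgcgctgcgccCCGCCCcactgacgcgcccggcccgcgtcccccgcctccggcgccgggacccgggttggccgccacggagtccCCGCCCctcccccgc
Ass1 held 1 E-box, ending 30 bases before the start, and 1 GC box; Odc1 held no E-box and 4 GC boxes in this window. Both strands were searched, and the motifs share no bases. Of the 32851 RefSeq promoters at hand, 6.02% held the E-box and 32.7% the GC box in the same window. These matches describe the letters and say nothing of binding.

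Other genes of arginine use showed no call between the genotypes. Of 7 tested genes of arginine transport and supply, 8 of arginases and the path from ornithine to proline, 12 of nitric oxide synthases and their cofactor, 17 of polyamine metabolism and 8 other users of arginine, none was called in either fit. The smallest unpaired p-values belonged to the antizyme gene Oaz1, which restrains ornithine decarboxylase (log2 difference -0.24), and Padi2, which converts arginine in proteins to citrulline (0.57), each with an adjusted p of 0.878. Differences in the other genes named by the rule were -0.41 for the transporter gene Slc7a1, 0.14 for Slc7a6, 0.08 for the ornithine aminotransferase gene Oat, -0.06 for Pycr3, -0.28 for Ddah1, -0.23 for the tetrahydrobiopterin synthesis gene Pts and 0.10 for Prmt5 (limma adjusted p from 0.878 to 0.947). Single libraries moved several of these: Slc7a1 was at -0.19 without wt 1, Slc7a6 at 0.059, Prmt5 at 0.021 and Pts at -0.15 without wt 6, Pycr3 at -0.022 without mCAT 3, and Oat at -0.0089 without wt 1. Ddah1 was low, at 3.56 to 52.5 normalised counts, where the deposited scale compresses differences. Its difference was -1.04 with log2(normalised count + 1) and -0.67 with log2(normalised count + 10), not called in either. Median differences of the 5 lists lay between -0.06 and 0.10, against 0.00 over all genes tested (-0.0012). Between the code series Nos2 was the only called member of these 5 lists.

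Genes known to act upstream of Nos2 and Arg1, or to accompany them, were likewise not called between genotypes. Of 23 regulators 0 were called, with 18 above 0 and a median of 0.18; Stat6, the interleukin 4 signal transducer, had the smallest p (0.33, limma adjusted p = 0.878), followed by Il10ra (0.28). Of 12 companions of Arg1 and 18 of Nos2, also 0 were called. Among these F13a1 (0.53), Mrc1 (0.34), Ciita (0.34) and Socs3 (0.31) had the smallest p-values, each with an adjusted p of 0.878. Mrc1 was at 0.21 without wt 4.

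Between the code series, companions of Nos2 were called in both directions. Of 18 tested, 4 were higher and 2 lower in C2, against 1.6% higher and 1.11% lower among all genes. The tumour necrosis factor gene Tnf was 7.35-fold higher, with 12900 to 29776 normalised counts in C2 and 1892 to 3938 in C1 (log2 difference 2.76, SE 0.22, limma adjusted p = 1.91e-06). The series did not overlap for Tnf. Il23a, a subunit of interleukin 23, was 12.5-fold higher (402 to 1361 against 39.7 to 100), and its partner subunit Il12b was higher too (38.8 to 201 against 0 to 42.8, log2 difference 1.09). Ptgs2, the inducible cyclooxygenase gene, was 1.96-fold higher. Lower, like Nos2, were Il12a, the other subunit of interleukin 12 (68.5 to 309 against 520 to 1438, log2 difference -1.83), and the formyl peptide receptor gene Fpr2 (-1.01). With stem means as samples, Tnf, Il23a and Il12a remained called (limma adjusted p = 0.00219, 0.00365 and 0.0305). Il12b, Ptgs2 and Fpr2 were then not called (limma adjusted p = 0.0818, 0.112 and 0.162). Without C2_2 and C2_4 only the partners of C2_1 were left in that series, so a p-value would hold no spread between C2 stems. The log2 differences were then 3.20 for Tnf, 2.65 for Il23a, -1.38 for Il12a, 0.58 for Il12b, 0.96 for Ptgs2 and -0.64 for Fpr2.

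**Figure D4:**
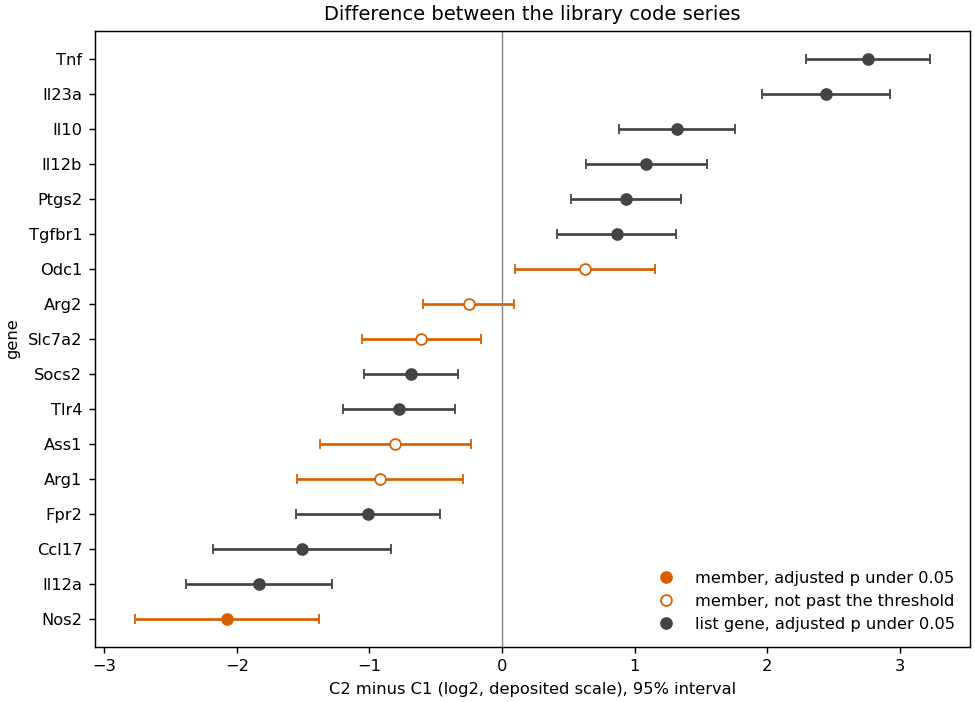
Difference C2 minus C1 on the deposited log2 scale with its 95% interval (limma, libraries of a stem treated as correlated) for the 6 genes (orange; filled where the adjusted p is under 0.05) and for the list genes called (grey). Nos2 lies lowest at -2.08 and Tnf highest at 2.76; of the 6 genes Odc1 alone lies above 0.

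Companions of Arg1 were called in both directions between the series. Of 12 tested, the immunosuppressive cytokine gene Il10 was higher in C2 (188 to 495 against 30.4 to 92.8, log2 difference 1.32, limma adjusted p = 0.00176). The chemokine gene Ccl17 (48.7 to 356 against 239 to 1069, -1.51) and the cytokine signalling inhibitor gene Socs2 (-0.68) were lower. Of 23 regulators, Tgfbr1 (0.87), a receptor of transforming growth factor beta, was higher and the endotoxin receptor gene Tlr4 (-0.78) lower. In all, 12 of 105 genes on the 8 lists, Nos2 among them, were called, 11.4%, against 2.71% of all genes, with a median of -0.16 against -0.01. The lists, here and above, were chosen with earlier results of these data known. A share of called list genes above that of all genes is therefore no test of the lists. Without C2_2 and C2_4, which left only the partners of C2_1 in that series, the 5 genes of this paragraph differed less than with them. Their log2 differences were 0.91 for Il10, -0.71 for Ccl17, -0.63 for Socs2, 0.19 for Tgfbr1 and -0.49 for Tlr4. With stem means as samples, Il10 remained called (limma adjusted p = 0.0371). Ccl17, Socs2, Tgfbr1 and Tlr4 were then not called (limma adjusted p = 0.101, 0.177, 0.173 and 0.0849). Leaving out 1 library ended the call of Fpr2 in 11 of 14 cases (adjusted p up to 0.0968 without mCAT 6), of Tgfbr1 in 9 (up to 0.0795 without wt 7), of Tlr4 in 9 (up to 0.111 without mCAT 7) and of Socs2 in 8 (up to 0.0790 without mCAT 6).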

How the data were processed

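Per the submitters' processing notes, reads were handled with FastQC, fastp and Salmon on GRCm39; no version, annotation or filter is named there. Libraries were Smart-seq2 from polyadenylated RNA, per the labels' protocols. Although its title speaks of raw counts, the deposited file holds log2-scale values with no whole numbers and 1 shared lowest value (5.96), the form of a variance-stabilising transformation; undoing its closed form gave the normalised counts used here. With 1 read set to the commonest low value, 56.7% (wt 7) to 79.1% of low values came out whole to within 0.15 (30% by chance), so whole reads were not recovered.

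The deposited log2 values were tested with limma 3.58.1 (R 4.3.3, statmod 1.5.0) with trend and robust moderation, for genes with a normalised count of at least 10 in at least 7 libraries. P-values were 2-sided and adjusted by Benjamini-Hochberg across the 12096 genes, and 0.05 was the threshold. The paired fit used the 12 libraries of 6 stems. Deviations from genotype means correlated between partners at 0.232 (C2_1) to 0.659 (C1_2), and stems were taken to pair libraries. Series means were not removed, so these values do not separate stem from series. Of C1 libraries from different stems, wt 3 and mCAT 3 correlated at 0.252, wt 2 and mCAT 2 at 0.158 and wt 1 and mCAT 1 at -0.294. The labels do not say that a stem is a host. Nor do they say that libraries of a group come from separate animals, so p-values measure only the spread between these samples. Code series were compared with genotype as a covariate and the correlation within a stem (0.463, the same value for every gene) estimated by duplicateCorrelation. Differences are on the deposited scale, which compresses low counts. Exact permutation and sign-flip tests were 2-sided. Transcript lengths were those of GENCODE M21 (GRCm38), not the annotation behind the table. Scripts were tested on simulated data. Named genes were the 6 genes, list genes called in any fit, the 2 per list with the smallest unpaired p, and the 5 genes most correlated with Arg1 and with Nos2. Genes and lists were chosen with earlier results of these data known. 1 microglia marker is not reported here and is left out of the sum and counts of those markers.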

Additional observations from a re-analysis of the deposited data

Results flagged for a closer look

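Of 64 groups of 7 libraries, 5 held a library far from the others of its genotype, where chance gives about 1 in 20. Fpr2 was lowest in wt 6 (796 normalised counts) and in mCAT 6 (798), and Slc7a6 was lowest in wt 6 (542). Pts was highest in wt 6 at 2633. Oaz1 in mCAT 5 was far above the other mCAT libraries at 17463. For Il23a all C1 pairs were higher and all C2 pairs lower in mCAT, with a difference between the series of -0.50 on the log2 scale (limma unadjusted p = 0.0377, adjusted p = 0.9997).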

How the results depend on the processing

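None of the 6 genes was called between genotypes under any alternative tried, but the signs of the differences of Arg1, Nos2, Slc7a2 and Ass1 changed when 1 library was left out. Of all genes, 24 were called between genotypes; with pairing by stem (replicate block) 38 were, within C1 15 and within C2 9. Blocking by the number in the titles, which pairs other libraries for numbers 1 to 3 (correlations of -0.294, 0.158 and 0.252), gave 25. The replicate block ended no call among the 6 genes, since none was made. Leaving out 1 library gave 18 to 25 calls, and log2 differences of -0.14 to 0.29 for Arg1, -0.084 to 0.62 for Nos2, -0.059 to 0.25 for Slc7a2, -0.26 to 0.16 for Ass1, 0.00046 (without wt 7) to 0.15 for Arg2, and -0.0089 to 0.13 for Oat. Arg1 was at -0.044 after quantile normalisation, Ass1 at 0.089 within C2 and Oat at -0.0024 with the replicate block. The difference of genotype effects between series called 1 gene with log2(normalised count + 1), against 0.

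Between code series, 328 genes were called in the main test, 903 with libraries as independent samples, 51 with stem means, 81 in mCAT alone, 15 in wt alone and 8 without stems C2_2 and C2_4, an alternative added after seeing the data. Leaving out 1 library gave 186 to 507: 186 without wt 6, 196 without mCAT 6, 199 without mCAT 7, 208 without wt 7, 214 without mCAT 3, 498 without wt 1 and 507 without wt 5. Of the 6 genes 1 was called; 2 were after quantile normalisation and with independent libraries, 1 to 3 when 1 library was left out, and 0 with stem means, in wt alone, in mCAT alone and without C2_2 and C2_4. Of list genes 12 were called, and 19 with independent libraries, 4 with stem means, 2 in wt alone and 4 in mCAT alone. Without C2_2 and C2_4 Arg1 was at 0.0286 and Arg2 at 0.22. The other filters, pseudocounts, scalings and variance models kept the counts within 1.5 times. By the rough estimate depth was lowest in wt 7, the library whose low values came closest to whole reads least often. The 6 genes, at 561 normalised counts or more, are far above the lowest measurable level.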
